A study of Mus musculus with 24 samples.

Results

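The 10 genes described here encode the muscle acetylcholine receptor and the proteins that gather it under the nerve: the 5 receptor subunit genes *Chrna1*, *Chrnb1*, *Chrnd*, *Chrng* and *Chrne*, and the 5 synapse assembly genes *Agrn*, *Lrp4*, *Musk*, *Dok7* and *Rapsn*. They were chosen by name, with earlier results of these data known. No measured value enters the rule, and all 10 were found among the 53392 genes quantified. Acetylcholine released by the motor nerve opens this receptor, a ring of subunits in the muscle membrane, and the fetal ring carries the γ subunit (*Chrng*) in the place that the ε subunit (*Chrne*) takes in adult muscle. Clustering is set off by agrin, which binds the receptor LRP4; LRP4 in turn activates the kinase MuSK, DOK7 acts inside the cell to activate MuSK further, and rapsyn ties receptors to the cytoskeleton. Dystrophin, which *mdx* mice lack in muscle, belongs to the membrane complex that is also concentrated in the folds of the synapse.

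The 24 libraries of bulk RNA-seq form 8 groups, each with 3 biological replicates, at 4 points of the myogenic trajectory in *mdx* and wild-type (WT) mice. The groups were *mdx* and WT freshly isolated muscle stem cells (FiMuSCs) from resting hindlimb muscle, *mdx* and WT activated muscle stem cells (AMuSCs) sorted 3 days after injection of cardiotoxin (CTX), which lyses myofibres, *mdx* and WT primary myoblasts in growth medium, and *mdx* and WT myotubes after 2 days of differentiation. By the study's methods the WT strain is C57BL/10ScSnJ and the *mdx* strain C57BL/10ScSn-Dmd mdx/J, and every group carries the Pax7-nGFP reporter, which marks cells that express the stem cell factor PAX7. The age of the mice behind these libraries is not given in the sources used here. FiMuSCs and AMuSCs were sorted as GFP+ ITGA7+ cells negative for CD31, CD45, SCA1 and CD11b, whereas the cultured cells were selected with magnetic beads. A Picopure kit was used for the RNA of the sorted cells and a Nucleospin kit for that of the cultures. Sorting, culture and kit therefore cannot be told apart between the sorted and the cultured groups, and those groups were not tested against each other. The cultures were not described as innervated or as treated with agrin, and the 10 motor neuron markers summed to at most 7.51 CPM in the libraries outside myoblasts and to 16.4 to 53.4 CPM in *mdx* myoblasts and 11.9 to 89.8 CPM in WT myoblasts.

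Library totals ran from 37280196 to 64429222 expected counts (median 47357463). The labelled cell types carried their markers: *Pax7* averaged 1743 ± 241 CPM in *mdx* FiMuSCs and 1604 ± 306 CPM in WT FiMuSCs, 27.2 ± 6.91 CPM in *mdx* myotubes and 22.0 ± 2.10 CPM in WT myotubes, while the embryonic myosin gene *Myh3* averaged 16403 ± 887 CPM in *mdx* myotubes and 20451 ± 1064 CPM in WT myotubes (SD, n = 3 each). CPM are counts scaled to a common library size with TMM factors over the 24 libraries, and TPM, as deposited, also correct for transcript length. Some *mdx* libraries stood apart in markers of other cells. The 12 macrophage genes summed to 4558 CPM in replicate 1 of the *mdx* AMuSCs, against 162 and 318 CPM in the other *mdx* AMuSCs and 11.5 to 31.0 CPM in WT AMuSCs, and to 191 CPM in replicate 2 of the *mdx* myoblasts, against 4.76 and 8.06 CPM in the other *mdx* myoblasts. In FiMuSCs they summed to 422 to 1454 CPM in *mdx* and 65.1 to 312 CPM in WT. In bulk RNA, fewer cells of a type and less RNA per cell cannot be told apart.

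The ligand-binding subunit gene *Chrna1* (chromosome 2, 73563215 to 73580338, minus strand; GRCm38 throughout) had the highest mean TPM of the subunit genes in AMuSCs, myoblasts and myotubes, narrowly so in *mdx* AMuSCs, where the mean share of *Chrnb1* was about as high. It had 131, 96.1 and 96.2 CPM in *mdx* FiMuSCs and 134, 148 and 157 CPM in WT FiMuSCs, 250, 554 and 384 CPM in *mdx* AMuSCs and 431, 494 and 487 CPM in WT AMuSCs. In culture *Chrna1* had 1038, 1109 and 1226 CPM in *mdx* myoblasts and 1299, 1372 and 1382 CPM in WT myoblasts, and 2166, 2828 and 2317 CPM in *mdx* myotubes and 3319, 3015 and 3188 CPM in WT myotubes. Its level thus stood in the order of the trajectory, and of neighbouring group means only those of WT and *mdx* AMuSCs had overlapping libraries.

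*Chrnd* (chromosome 1, 87190607 to 87200070, plus strand), the δ subunit gene, had 6.66, 7.30 and 7.76 CPM in *mdx* FiMuSCs and 8.67, 5.32 and 2.82 CPM in WT FiMuSCs, 50.1, 114 and 91.7 CPM in *mdx* AMuSCs and 117, 125 and 121 CPM in WT AMuSCs. In culture *Chrnd* had 79.6, 140 and 163 CPM in *mdx* myoblasts and 144, 167 and 156 CPM in WT myoblasts, and 329, 580 and 605 CPM in *mdx* myotubes and 704, 669 and 651 CPM in WT myotubes. *Chrng* (chromosome 1, 87204657 to 87212694, plus strand), the fetal γ subunit gene, had the widest span of the tested members, with 5.94, 6.56 and 7.18 CPM in *mdx* FiMuSCs and 5.85, 1.82 and 0.643 CPM in WT FiMuSCs, 44.7, 83.9 and 68.9 CPM in *mdx* AMuSCs and 52.2, 74.1 and 62.4 CPM in WT AMuSCs. In culture *Chrng* had 61.6, 138 and 84.7 CPM in *mdx* myoblasts and 118, 151 and 129 CPM in WT myoblasts, and 530, 989 and 728 CPM in *mdx* myotubes and 1239, 1225 and 1165 CPM in WT myotubes. Replicate 1 was the lowest *mdx* library for both genes in AMuSCs, myoblasts and myotubes.

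*Chrnb1* (chromosome 11, 69784036 to 69795943, minus strand), the β subunit gene, was already at a high level in FiMuSCs. It had 245, 240 and 229 CPM in *mdx* FiMuSCs and 322, 322 and 320 CPM in WT FiMuSCs, 100, 118 and 119 CPM in *mdx* AMuSCs and 93.4, 99.1 and 113 CPM in WT AMuSCs. In culture *Chrnb1* had 154, 167 and 155 CPM in *mdx* myoblasts and 153, 164 and 161 CPM in WT myoblasts, and 334, 291 and 319 CPM in *mdx* myotubes and 342, 310 and 336 CPM in WT myotubes. Its highest group mean was in WT myotubes by TMM-scaled CPM but in WT FiMuSCs by library-total CPM and by TPM. Part of this level came from transcripts annotated as retained introns, which made up 41.9% ± 1.64 of *Chrnb1* TPM in *mdx* FiMuSCs and 46.3% ± 1.53 in WT FiMuSCs, against 18.4% ± 3.92 in *mdx* myotubes and 20.2% ± 2.27 in WT myotubes (SD, n = 3 each). The main coding transcript alone still averaged 85.7 ± 3.46 TPM in *mdx* FiMuSCs and 114 ± 5.13 TPM in WT FiMuSCs, against 74.0 ± 11.5 TPM in *mdx* myotubes and 72.3 ± 2.52 TPM in WT myotubes.

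*Chrne* (chromosome 11, 70614883 to 70619216, minus strand), the adult ε subunit gene, was close to the limit of detection outside myotubes. Its expected counts were 4, 5 and 1 in *mdx* FiMuSCs and 11, 0 and 2 in WT FiMuSCs, 1, 12 and 7 in *mdx* AMuSCs and 5, 10 and 1 in WT AMuSCs, 0, 3 and 4 in *mdx* myoblasts and 3, 6 and 0 in WT myoblasts, and 21, 66 and 319 in *mdx* myotubes and 77, 53 and 72 in WT myotubes. All 6 myotube libraries thus lay above all 18 others, with 0.616, 1.80 and 6.15 CPM in *mdx* myotubes and 2.21, 1.79 and 2.25 CPM in WT myotubes. An uncharacterised gene on the opposite strand, 4930544D05Rik, overlaps *Chrne* over 1043 bases, with a median count of 0.

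**Figure D1:**
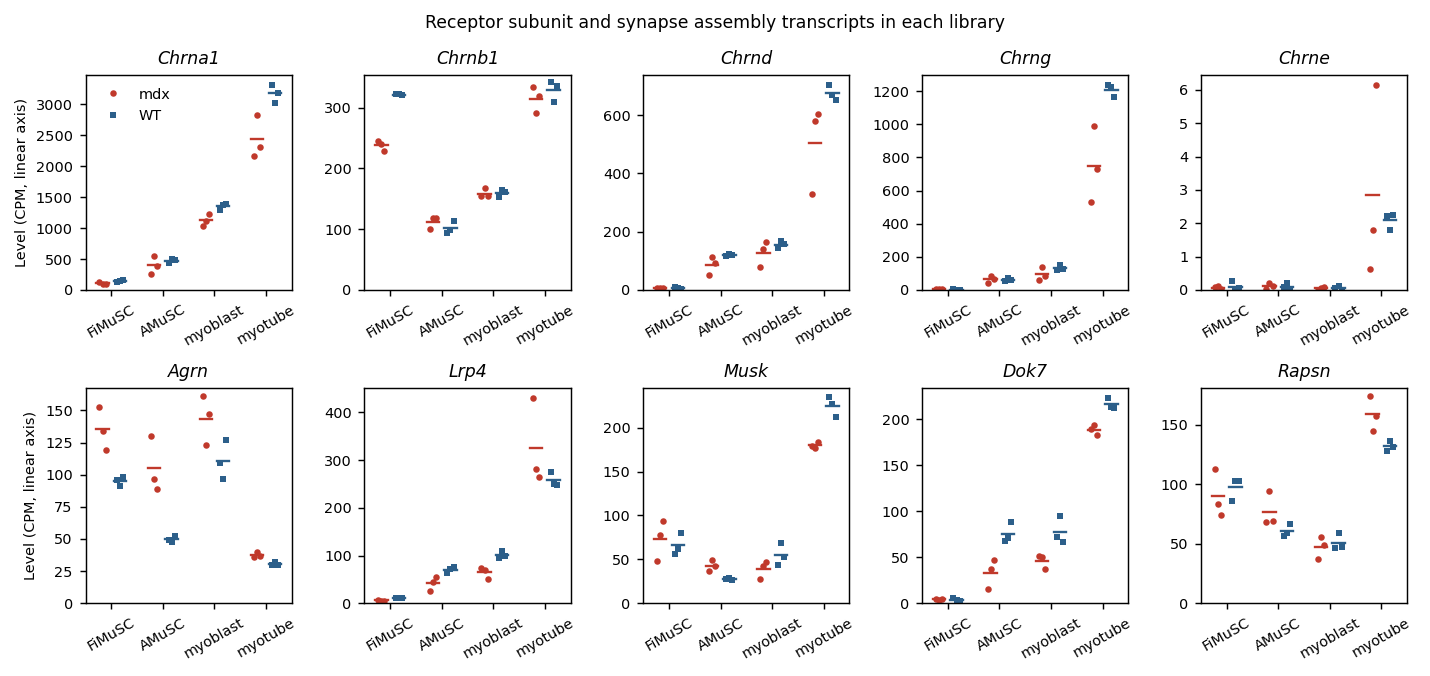
Level of each of the 10 genes in the 24 libraries, as CPM on a linear axis that differs by gene (y axis), with *mdx* and WT side by side at each of the 4 cell states (x axis); points are libraries and short lines are group means. *Chrna1*, *Chrnd*, *Chrng*, *Lrp4* and *Dok7* climb along the trajectory, *Chrnb1* is lowest in AMuSCs, and *Agrn* is lowest in myotubes, at 37.4 CPM in *mdx* and 30.8 CPM in WT.

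Per length, the balance between subunit messages differed between the cell states. In FiMuSCs *Chrnb1* made up 85.8% ± 1.60 of the summed TPM of the 5 subunit genes in *mdx* and 87.1% ± 0.551 in WT, and *Chrna1* 11.3% ± 1.66 in *mdx* and 11.7% ± 1.33 in WT. In AMuSCs *Chrna1* made up 35.7% ± 5.40 in *mdx* and 40.6% ± 0.10 in WT, and *Chrnb1* 35.9% ± 7.52 in *mdx* and 28.2% ± 2.17 in WT. *Chrnd* made up 12.2% ± 1.61 in *mdx* and 17% ± 0.971 in WT, and *Chrng* 16.0% ± 0.896 in *mdx* and 14.1% ± 2.32 in WT (SD, n = 3 each). Myoblasts had *Chrna1* in the majority, at 53.5% ± 3.46 in *mdx* and 54.0% ± 1.17 in WT.

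In myotubes *Chrng* reached 29.7% ± 3.40 of the sum in *mdx* and 35.4% ± 1.25 in WT, with libraries of 26.3% to 33.1% in *mdx* and 34.4% to 36.8% in WT, and *Chrnb1* made up 16.1% ± 4.35 in *mdx* and 12.4% ± 0.416 in WT. The summed level of the 5 subunit genes was 727 ± 23.5 TPM in *mdx* myotubes and 941 ± 42.1 TPM in WT myotubes, and the ranges did not overlap. With 3 libraries against 3, an exact permutation test cannot give a p below 0.1, so these shares were not tested. *Chrne* stayed at 0.186% ± 0.217 in *mdx* myotubes and 0.104% ± 0.0364 in WT myotubes. Of the summed TPM of the γ and ε genes, *Chrng* made up 99.4% ± 0.700 in *mdx* myotubes and 99.7% ± 0.10 in WT myotubes, so that the message pool was of the fetal kind in every myotube library. The TPM of *Chrng* includes short partial transcripts, to which the quantification can assign reads of the full transcript.

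**Figure D2:**
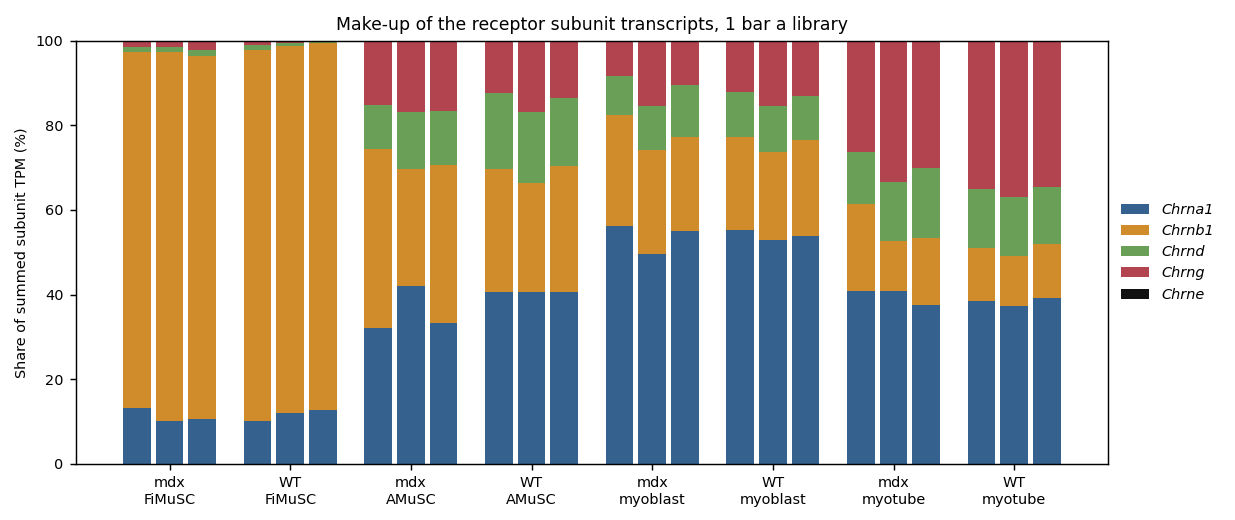
Share of each receptor subunit gene in the summed TPM of the 5 subunit genes (y axis, percent, stacked to 100) with 1 bar for each library of *mdx* and WT at each cell state (x axis). *Chrnb1* fills on average 85.8% of the bars of *mdx* FiMuSCs, *Chrna1* leads in myoblasts, *Chrng* takes 35.4% on average in WT myotubes, and *Chrne* is too small to see.

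The stretch of 250 bases before the RefSeq start site (GRCm38.p6 table) was read for the members that the table holds, 7 of 10 with 9 start sites. The windows of *Chrna1*, *Chrng* and *Chrne* are shown because *Chrna1* and *Chrng* stood at high levels in myotubes and *Chrne* did not. Capitals mark every CANNTG (the E-box, which myogenic bHLH factors such as MYOD and myogenin bind; CAGCTG is among its forms) and every CCGGAA (the core of the N-box, known from synaptic gene promoters), searched on both strands, and positions count back from the start site.
Chrna1, chr2:73580339-73580588, minus strand: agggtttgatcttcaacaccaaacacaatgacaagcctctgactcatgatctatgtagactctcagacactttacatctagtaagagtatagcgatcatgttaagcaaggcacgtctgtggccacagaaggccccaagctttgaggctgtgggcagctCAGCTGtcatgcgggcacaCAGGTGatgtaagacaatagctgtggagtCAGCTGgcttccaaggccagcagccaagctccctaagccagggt
Chrng, chr1:87205561-87205810, plus strand: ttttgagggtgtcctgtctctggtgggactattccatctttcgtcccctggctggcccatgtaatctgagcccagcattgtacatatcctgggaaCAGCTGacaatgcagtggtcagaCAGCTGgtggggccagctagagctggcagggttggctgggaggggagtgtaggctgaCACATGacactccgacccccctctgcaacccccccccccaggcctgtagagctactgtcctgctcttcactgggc
Chrne, chr11:70619195-70619444, minus strand: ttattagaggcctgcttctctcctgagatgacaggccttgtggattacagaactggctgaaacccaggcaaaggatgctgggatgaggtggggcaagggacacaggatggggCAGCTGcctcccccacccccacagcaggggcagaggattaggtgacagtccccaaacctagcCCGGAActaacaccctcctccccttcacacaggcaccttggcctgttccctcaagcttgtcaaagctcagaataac
*Chrna1* holds 3 CANNTG, of which those at -92 to -87 and -44 to -39 read CAGCTG. *Chrng* also holds 3, with CAGCTG at -155 to -150 and -132 to -127. *Chrne* holds 1 CAGCTG, at -138 to -133, and 1 CCGGAA, at -76 to -71. Among the 32851 windows of the same length in the table, 66.2% hold at least 1 CANNTG and 12.2% at least 3, 13.0% hold at least 1 CAGCTG and 1.26% at least 2, and 12% hold CCGGAA. *Musk* and *Chrnb1* hold 3 CANNTG each, 1 of them CAGCTG in *Musk* and 0 in *Chrnb1*. The 2 windows each of *Agrn* and *Dok7* hold 0 CAGCTG, and in both genes 1 window holds 1 CANNTG and the other 0. A match is a description of the letters only; binding was not measured.

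*Agrn* (chromosome 4, 156165290 to 156197488, minus strand), the gene of the secreted organiser agrin, was lowest in myotubes. It had 153, 134 and 119 CPM in *mdx* FiMuSCs and 95.8, 91.4 and 98.2 CPM in WT FiMuSCs, 130, 96.7 and 88.7 CPM in *mdx* AMuSCs and 49.5, 47.7 and 52.3 CPM in WT AMuSCs. In culture *Agrn* had 161, 123 and 147 CPM in *mdx* myoblasts and 109, 96.4 and 127 CPM in WT myoblasts, and 35.6, 40.1 and 36.5 CPM in *mdx* myotubes and 30, 32.4 and 30.1 CPM in WT myotubes. The *mdx* libraries were above all WT libraries of the same state in FiMuSCs, AMuSCs and myotubes. The state with the highest mean was *mdx* myoblasts by TMM-scaled CPM and *mdx* FiMuSCs by library-total CPM and by TPM.

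*Lrp4* (chromosome 2, 91457511 to 91513779, plus strand), the agrin receptor gene, had 7.37, 5.26 and 5.22 CPM in *mdx* FiMuSCs and 11.5, 11.8 and 10.9 CPM in WT FiMuSCs, 25.7, 45.0 and 55.9 CPM in *mdx* AMuSCs and 62.5, 72.0 and 76.0 CPM in WT AMuSCs. In culture *Lrp4* had 74.3, 70.3 and 49.8 CPM in *mdx* myoblasts and 93.8, 109 and 99.7 CPM in WT myoblasts, and 430, 282 and 264 CPM in *mdx* myotubes and 274, 250 and 248 CPM in WT myotubes. All *mdx* libraries lay below all WT libraries in FiMuSCs, AMuSCs and myoblasts. The groups overlapped in myotubes, where the *mdx* replicate at 430 CPM was the same library that had the lowest *Chrnd* and *Chrng*.

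*Dok7* (chromosome 5, 35056766 to 35087839, plus strand), the gene of the cytoplasmic activator of MuSK, had 4.39, 3.61 and 4.73 CPM in *mdx* FiMuSCs and 5.83, 3.22 and 2.15 CPM in WT FiMuSCs, 15.9, 37 and 46.6 CPM in *mdx* AMuSCs and 67.8, 70.7 and 88.1 CPM in WT AMuSCs. In culture *Dok7* had 51.0, 50.6 and 36.7 CPM in *mdx* myoblasts and 71.9, 94.4 and 66.2 CPM in WT myoblasts, and 189, 194 and 183 CPM in *mdx* myotubes and 223, 213 and 212 CPM in WT myotubes. From AMuSCs onwards its *mdx* libraries lay below its WT libraries without overlap.

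*Musk* (chromosome 4, 58285960 to 58374303, plus strand), the kinase gene, and *Rapsn* (chromosome 2, 91035620 to 91045729, plus strand), the scaffold gene, were present from the start. *Musk* had 47.8, 77.8 and 93.2 CPM in *mdx* FiMuSCs and 56.3, 61.5 and 80.2 CPM in WT FiMuSCs, 36.3, 49.0 and 42.3 CPM in *mdx* AMuSCs and 27.6, 29.0 and 26.7 CPM in WT AMuSCs. In culture *Musk* had 27.4, 42.1 and 47.2 CPM in *mdx* myoblasts and 44.1, 68.6 and 52.7 CPM in WT myoblasts, and 179, 177 and 184 CPM in *mdx* myotubes and 235, 227 and 212 CPM in WT myotubes. *Rapsn* had 113, 83.7 and 74.4 CPM in *mdx* FiMuSCs and 86.2, 103 and 103 CPM in WT FiMuSCs, 67.9, 94.0 and 68.7 CPM in *mdx* AMuSCs and 56.1, 59.2 and 66.2 CPM in WT AMuSCs. In culture *Rapsn* had 36.8, 55.7 and 49.1 CPM in *mdx* myoblasts and 46.2, 58.8 and 47.5 CPM in WT myoblasts, and 174, 145 and 157 CPM in *mdx* myotubes and 128, 136 and 131 CPM in WT myotubes. By CPM both were thus highest in myotubes and next highest in FiMuSCs, although by TPM the highest *Rapsn* mean was in WT FiMuSCs. A predicted gene on the opposite strand, Gm13778, overlaps *Rapsn* over 1638 bases with a median count of 7.

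The sequence of *Musk* and *Agrn* messages depends on short alternative exons, which the deposited transcript values resolve in part. They are printed because the splits below turn on them, with exon bases in capitals and 12 bases of the neighbouring exons in the transcript in lower case.
Musk 30-base exon, exon 6 of 16 in Musk-203, chr4:58327326-58327355, plus strand: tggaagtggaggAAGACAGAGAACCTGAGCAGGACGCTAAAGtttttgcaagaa
Musk 24-base exon, exon 12 of 16 in Musk-203, chr4:58356482-58356505, plus strand: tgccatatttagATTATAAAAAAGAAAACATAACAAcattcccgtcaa
Agrn 12-base exon, exon 30 of 38 in Agrn-203, chr4:156169546-156169557, minus strand: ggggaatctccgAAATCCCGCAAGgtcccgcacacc
Agrn 24-base exon, exon 34 of 38 in Agrn-203, chr4:156168546-156168569, minus strand: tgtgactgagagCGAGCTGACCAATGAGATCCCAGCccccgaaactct
Agrn 33-base exon, exon 35 of 38 in Agrn-203, chr4:156167777-156167809, minus strand: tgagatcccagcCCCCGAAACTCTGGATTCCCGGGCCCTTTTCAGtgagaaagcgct
All 5 exons are coding and a multiple of 3 bases long. In agrin the 12-base exon gives the insert at the y site and the 24- and 33-base exons those at the z site, and z inserts are known from motor neurons, whose agrin is the potent form in receptor clustering.

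The *Musk* shares are of the summed TPM of the transcripts compared, which are not all 8 transcripts of the gene. Those with the 24-base exon made up 53.4% in *mdx* myotubes (50.3% to 58.1%) and 63.8% in WT myotubes (59.4% to 69.2%), against 31.0% (14.4% to 57.3%) in *mdx* myoblasts and 33.1% (25.3% to 38.1%) in WT myoblasts. For the 30-base exon these shares were 47.2% and 37.6% in *mdx* and WT myotubes and 47.9% and 43.2% in *mdx* and WT myoblasts. The compared transcript with neither exon, Musk-205, was listed at 0 in 6 of 6 myotube libraries and above 0 in 17 of 18 others, the exception being replicate 2 of the *mdx* myoblasts. It averaged 6.69 ± 1.98 TPM in *mdx* FiMuSCs and 6.57 ± 3.41 TPM in WT FiMuSCs, and 6.45 ± 1.04 TPM in *mdx* AMuSCs and 2.65 ± 1.04 TPM in WT AMuSCs (SD, n = 3 each). Among the transcripts compared, the *Musk* messages of myotubes therefore carried at least 1 of these exons, as far as the estimates resolve them.

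Agrn-203, the transcript with all 3 of the agrin exons, made up 22.3% of the *Agrn* TPM in the compared transcripts in *mdx* myotubes (20.0% to 26.3%) and 24.9% in WT myotubes (21.4% to 28.0%), at 0.437 ± 0.0890 TPM in *mdx* and 0.393 ± 0.0371 TPM in WT. It was listed at 0 in every library of *mdx* FiMuSCs, *mdx* myoblasts and WT myoblasts, and averaged 3.32% in *mdx* AMuSCs, 2.93% in WT AMuSCs and 2.96% in WT FiMuSCs. The main transcript without these exons, Agrn-206, averaged 9.15 ± 0.976 TPM in *mdx* FiMuSCs and 6.42 ± 0.409 TPM in WT FiMuSCs, against 1.21 ± 0.296 TPM in *mdx* myotubes and 1.08 ± 0.316 TPM in WT myotubes. The larger share in myotubes thus stood on a low total. These splits are estimates from reads shared between transcripts, and they were not tested. The 24-base exon is also in Agrn-205 and the 12-base exon in Agrn-207, which were not among the transcripts compared.

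**Figure D3:**
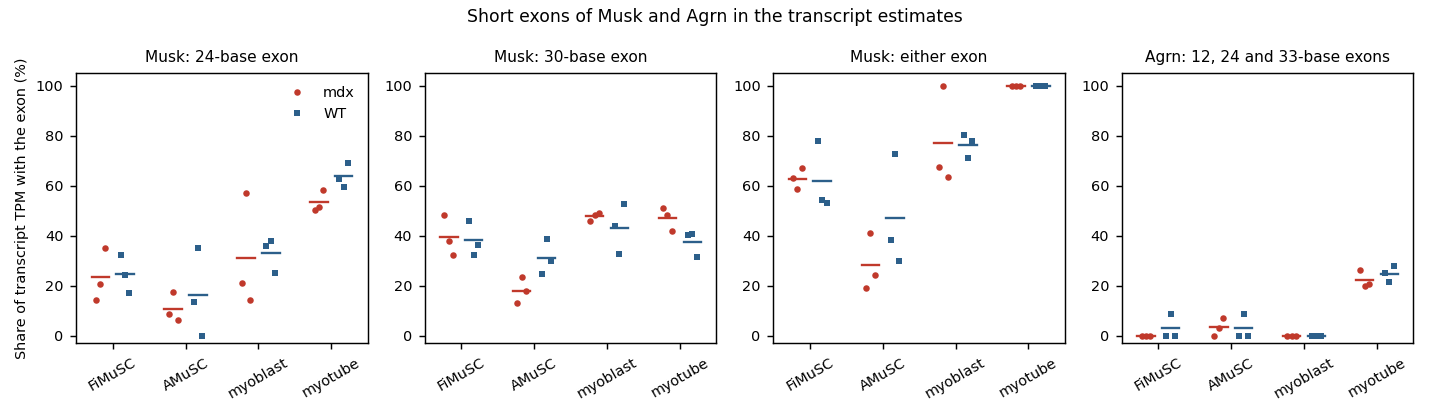
Share of *Musk* TPM in transcripts with the 24-base exon, with the 30-base exon and with at least 1 of them, and share of *Agrn* TPM in the transcript with the 12-, 24- and 33-base exons (y axes, percent), for *mdx* and WT at each cell state (x axis; points are libraries, short lines are means). Shares are of the summed TPM of the transcripts compared, not of all transcripts of the gene. The *Agrn* share reaches 20.0% to 28.0% in the 6 myotube libraries, and the *Musk* 24-base exon is at 53.4% in *mdx* and 63.8% in WT myotubes.

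The comparison of uninjured stem cells asked whether these genes differ between *mdx* and WT before any induced injury. *Agrn* was higher in *mdx* FiMuSCs and *Chrnb1* and *Lrp4* were lower. *Agrn* differed by 0.52 ± 0.113 (log2 fold change ± SE, edgeR quasi-likelihood test on 3 *mdx* and 3 WT libraries, adjusted p = 0.0373), *Chrnb1* by -0.43 ± 0.0746 (adjusted p = 0.0189) and *Lrp4* by -0.93 ± 0.184 (adjusted p = 0.0281). The groups did not overlap for these 3 genes, nor for *Chrna1* and *Chrng*, which were not called. The share of all genes without overlap was not counted in any comparison. Of the 9 members tested (*Chrne* was too low), 1 was called higher, where 5.82% of all 19406 genes tested were called higher, and 2 were called lower, where 3.85% were called lower. The median log2 fold change was 0.14 over the members and 0.00 over all genes.

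All 3 calls in FiMuSCs sat close to the threshold. *Agrn* was not called without WT replicate 1, 2 or 3 or *mdx* replicate 2 (adjusted p = 0.0736, 0.119, 0.114 and 0.124 by edgeR). *Chrnb1* was lost without WT replicate 2 or 3 or *mdx* replicate 2 or 3 (adjusted p = 0.0659, 0.0760, 0.0944 and 0.0804), and *Lrp4* without WT replicate 1, 2 or 3 or *mdx* replicate 2 or 3 (adjusted p = 0.0559, 0.0914, 0.0867, 0.112 and 0.0969) and with an offset for transcript length (-0.92, adjusted p = 0.089). The fold changes moved little in these fits, between -0.43 and -0.39 for *Chrnb1*. *Chrna1* differed by -0.44 ± 0.149 (adjusted p = 0.124) with groups that did not overlap, and by -0.61 (adjusted p = 0.0157) without *mdx* replicate 1. *Chrng* differed by 1.25 ± 0.699 (adjusted p = 0.320), and by 2.41 (adjusted p = 0.0369) without WT replicate 1. The other members gave 0.38 ± 0.375 for *Chrnd* (adjusted p = 0.582), 0.14 ± 0.253 for *Musk* (0.775), -0.10 ± 0.174 for *Rapsn* (0.772) and 0.19 ± 0.367 for *Dok7* (0.793). With the length offset *Dok7* stood at 1.21 (adjusted p = 0.11).

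Macrophage markers moved with the FiMuSC comparison, with 8 of 12 called higher in *mdx* and 0 lower. Endothelial markers had 1 of 10 called higher and 1 lower, and fibro-adipogenic markers 2 of 10 higher and 1 lower. Of the 9 Schwann cell markers and 3 motor neuron markers tested, 0 were called. Over all genes tested, 5.82% were called higher and 3.85% lower. Of 23 myogenic differentiation genes 6 were called higher and 3 lower (median log2 fold change 1.08), with a summed level of 1549 to 1646 CPM in *mdx* FiMuSCs and 1493 to 1593 CPM in WT FiMuSCs. Of 16 mature myofibre markers 4 were called higher and 1 lower (median 0.70), although their summed level was 367 to 431 CPM in *mdx* FiMuSCs and 420 to 828 CPM in WT FiMuSCs. Their part in the member values was not tested.

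After CTX injury, *mdx* AMuSCs had more *Agrn* and *Musk* message than WT AMuSCs. *Agrn* was higher by 1.05 ± 0.161 (log2 fold change ± SE, edgeR, n = 3 and 3, adjusted p = 0.00522), a call that held in all 12 alternative fits. *Musk* was higher by 0.59 ± 0.126 (adjusted p = 0.0157), which was lost without WT replicate 1, 2 or 3 (adjusted p = 0.0814, 0.0636 and 0.0823) and with an offset for transcript length (0.40, adjusted p = 0.118). Of the 9 members tested 2 were called higher, against 14.8% of all 19321 genes, and 0 were called lower, against 8.95% of all genes. The median was 0.04 over the members and 0.04 over all genes.

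*Dok7* and *Lrp4* were the members with the largest negative differences in AMuSCs, with no overlap between the groups, but neither passed the main test. *Dok7* differed by -1.21 ± 0.379 (edgeR adjusted p = 0.0638) and *Lrp4* by -0.76 ± 0.266 (adjusted p = 0.0797). DESeq2, which called 5863 of 19441 genes, called both, *Dok7* at -1.28 (adjusted p = 0.000302) and *Lrp4* at -0.82 (adjusted p = 0.00693). By edgeR, *Dok7* was called without *mdx* replicate 1 (-0.88, adjusted p = 0.0158) and without *mdx* replicate 3 (-1.57, adjusted p = 0.0328), and *Lrp4* without *mdx* replicate 3 (-1.04, adjusted p = 0.0264). Both were also called with all 24 libraries in one fit (adjusted p = 0.00683 for *Dok7* and 0.0182 for *Lrp4*) and with a replicate block (0.0266 and 0.029). *Dok7* was called with the length offset too (0.0499). Of 12 alternative fits, DESeq2 included, 6 called *Dok7* and 4 called *Lrp4*. At an unadjusted p under 0.05 by edgeR there were 4 members, and the share of all genes at that level was not counted.

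The subunit genes did not pass in AMuSCs: *Chrnd* differed by -0.54 ± 0.258 (edgeR adjusted p = 0.174), *Chrna1* by -0.29 ± 0.250 (0.463), *Chrnb1* by 0.12 ± 0.124 (0.546) and *Chrng* by 0.04 ± 0.225 (0.932). *Chrna1* was called at -0.62 (adjusted p = 0.0400) without *mdx* replicate 2. *Rapsn* differed by 0.31 ± 0.137 (adjusted p = 0.136). Replicate 1 of the *mdx* AMuSCs, the library with 4558 CPM of macrophage markers, was the lowest of its group for the 8 members tested other than *Agrn* and the highest for *Agrn*, and it had 71.0 CPM of the myogenic factor gene *Myog*, against 260 and 181 CPM in the other *mdx* AMuSCs and 144, 200 and 149 CPM in WT AMuSCs. All 10 proliferation markers were called lower in *mdx* AMuSCs and 7 of 12 macrophage markers higher, and the fibro-adipogenic markers summed to 1927 to 2936 CPM in *mdx* and 586 to 691 CPM in WT. Without replicate 1 *Agrn* was higher by 0.86 (adjusted p = 0.0032), *Musk* by 0.68 (0.00819) and *Dok7* lower at -0.88 (0.0158), while *Lrp4* stood at -0.50 (0.0643), *Chrnd* at -0.27 (0.145) and *Chrna1* at -0.05 (0.882). The part of the other differences in the member values was not tested.

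In culture, no member passed the test between genotypes. In myoblasts 0 of 9 members tested were called by edgeR, against 0.36% of all 17226 genes called in either direction. At an unadjusted p under 0.05 there were 4 members, and the share of all genes at that level was not counted. DESeq2, which called 889 of 18233 genes, called 2 members, *Lrp4* at -0.64 (adjusted p = 0.00414) and *Dok7* at -0.75 (adjusted p = 0.00211). By edgeR these genes stood at -0.63 ± 0.158 (adjusted p = 0.191) and -0.74 ± 0.181 (adjusted p = 0.185), in *mdx* libraries that were all below the WT libraries. *Chrna1* stood at -0.25 ± 0.0803 (adjusted p = 0.258), without overlap between the groups. The groups overlapped for *Agrn* (0.39 ± 0.132, adjusted p = 0.283), *Musk* (-0.49 ± 0.244, 0.420), *Chrng* (-0.47 ± 0.299, 0.526), *Chrnd* (-0.28 ± 0.255, 0.667), *Rapsn* (-0.10 ± 0.172, 0.843) and *Chrnb1* (0.00 ± 0.0672, 0.996). Without *mdx* replicate 2, the library with macrophage markers, *Lrp4* differed by -0.69 and *Dok7* by -0.81 (adjusted p = 0.278 for both). The median was -0.28 over the members and 0.02 over all genes.

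In myotubes 0 of 10 members were called by edgeR, against 0.591% of all 16084 genes called in either direction. At an unadjusted p under 0.05 there were 6 members, and the share of all genes at that level was not counted. DESeq2, which called 686 of 16310 genes, called 2 members, *Chrng* at -0.70 (adjusted p = 0.0126) and *Musk* at -0.32 (adjusted p = 0.0205). By edgeR *Chrng* differed by -0.70 ± 0.200 (adjusted p = 0.230), *Musk* by -0.32 ± 0.0681 (adjusted p = 0.124), *Chrna1* by -0.39 ± 0.118 (adjusted p = 0.254) and *Chrnd* by -0.43 ± 0.207 (adjusted p = 0.423). *Agrn*, at 0.27 ± 0.0852 (adjusted p = 0.264), and *Rapsn*, at 0.26 ± 0.0935 (adjusted p = 0.303), were above WT in every *mdx* library, and *Dok7* was below, at -0.20 ± 0.0664 (adjusted p = 0.281). The groups overlapped for *Lrp4* (0.34 ± 0.197, adjusted p = 0.497), *Chrne* (0.44 ± 0.722, 0.818) and *Chrnb1* (-0.07 ± 0.0872, 0.767). Replicate 1 of the *mdx* myotubes, which had the most *Lrp4* and the least *Chrnd* and *Chrng*, also had 2339 CPM of *Myog* against 1467 and 1218 CPM in the other *mdx* myotubes, and 21282 CPM of summed mature myofibre markers against 35083 and 33550 CPM. Without it *Lrp4* differed by 0.07 (adjusted p = 0.695), *Chrng* by -0.51 (0.153), *Chrnd* by -0.21 (0.203) and *Musk* by -0.34 (0.0708).

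The injury comparison set AMuSCs against FiMuSCs within each genotype, using the same libraries as above. In both genotypes *Chrna1*, *Chrnd*, *Chrng*, *Lrp4* and *Dok7* rose and *Chrnb1* fell. In *mdx* cells the log2 fold changes were 3.56 ± 0.317 for *Chrnd* (edgeR adjusted p = 0.000465), 3.33 ± 0.260 for *Chrng* (0.000251), 2.97 ± 0.404 for *Dok7* (0.00270), 2.83 ± 0.322 for *Lrp4* (0.00118), 1.88 ± 0.307 for *Chrna1* (0.00513) and -1.08 ± 0.141 for *Chrnb1* (0.00199). Of 9 members tested 5 were called higher, against 15.5% of all 19650 genes, and 1 was called lower, against 11.7%. *Musk* differed by -0.78 ± 0.252 (adjusted p = 0.0554) and was called lower by DESeq2 (adjusted p = 0.0229), without the count filter (0.0377), with all 24 libraries in one fit (0.00783), with a replicate block (0.0389) and without *mdx* FiMuSC replicate 1 (-1.01, 0.0141). *Agrn* differed by -0.37 ± 0.179 (adjusted p = 0.165) and was called lower with all 24 libraries in one fit (-0.37, 0.0347) and without *mdx* AMuSC replicate 1 (-0.53, 0.0498). *Rapsn* differed by -0.24 ± 0.211 (adjusted p = 0.455). The 6 calls held without *mdx* AMuSC replicate 1, at 3.84 for *Chrnd*, 3.56 for *Chrng*, 3.31 for *Dok7*, 3.10 for *Lrp4*, 2.14 for *Chrna1* and -0.99 for *Chrnb1*.

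In WT cells all 9 members tested were called, 5 of them higher, against 31.6% of all 19359 genes, and 4 lower, against 33%. The log2 fold changes were 4.61 ± 0.718 for *Chrng* (edgeR adjusted p = 0.00160), 4.53 ± 0.394 for *Chrnd* (0.000105), 4.43 ± 0.372 for *Dok7* (8.98e-05), 2.71 ± 0.104 for *Lrp4* (4.91e-07) and 1.77 ± 0.102 for *Chrna1* (2.23e-06). *Chrnb1* fell by 1.57 (SE 0.0932, adjusted p = 2.57e-06), *Musk* by 1.16 (0.140, 0.000124), *Agrn* by 0.84 (0.0795, 2.97e-05) and *Rapsn* by 0.60 (0.106, 0.00116) on the log2 scale. Without WT FiMuSC replicate 1, which held most of the *Chrng* of that group, *Chrng* rose by 5.73 (adjusted p = 0.000298). With the length offset *Dok7* rose by 5.23 (adjusted p = 1.27e-05). The median was 1.88 over the members in *mdx* and 1.77 in WT, against -0.02 and -0.08 over all genes.

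Markers of other cells moved with injury too. All 10 endothelial markers were called lower in both genotypes, with a median summed level of 56.8 CPM in *mdx* AMuSCs and 322 CPM in *mdx* FiMuSCs, and of 29.0 CPM in WT AMuSCs and 383 CPM in WT FiMuSCs. Fibro-adipogenic markers had 7 of 10 called lower in *mdx* and 9 of 10 in WT, and Schwann cell markers 7 of 10 in *mdx* and 8 of 9 in WT. Of 12 macrophage markers, 0 were called lower in *mdx* and 8 in WT, while all 10 proliferation markers were called higher in both genotypes. Their part in the values of the members, among them the falls of *Chrnb1*, *Musk*, *Agrn* and *Rapsn*, was not tested.

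Whether the injury response differs between genotypes was tested by the interaction term over the 12 sorted libraries. By edgeR 0 of 9 members were called, against 15.1% of all 21086 genes called in either direction. At an unadjusted p under 0.05 there were 3 members, and the share of all genes at that level was not counted. *Dok7* had a difference of -1.50 ± 0.563 (adjusted p = 0.0993), *Chrnb1* of 0.46 ± 0.160 (adjusted p = 0.0764) and *Agrn* of 0.44 ± 0.200 (adjusted p = 0.162). The other differences were -1.31 ± 0.766 for *Chrng* (0.290), -1.0 ± 0.499 for *Chrnd* (0.209), 0.36 ± 0.306 for *Musk* (0.488), 0.33 ± 0.250 for *Rapsn* (0.419), 0.08 ± 0.336 for *Chrna1* (0.919) and 0.08 ± 0.339 for *Lrp4* (0.910). DESeq2, which called 4604 of 19148 genes, called 2 members, *Chrnb1* at 0.48 (adjusted p = 0.0215) and *Dok7* at -1.48 (adjusted p = 0.0273). With the length offset *Dok7* was called at -2.55 (edgeR adjusted p = 0.0166). By edgeR single libraries decided calls here: without WT FiMuSC replicate 1, *Chrng* (-2.45, adjusted p = 0.0102), *Dok7* (-1.97, 0.0308) and *Chrnd* (-1.45, 0.0475) were called, and *Chrnb1* was called without WT AMuSC replicate 3 (0.55, 0.0462) or *mdx* AMuSC replicate 1 (0.52, 0.0496).

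Differentiation, set as myotubes against myoblasts, moved all 9 members that were tested in both states, in both genotypes, 8 up and *Agrn* down. In *mdx* cells *Chrng* rose by 3.01 ± 0.367 (log2 fold change ± SE, edgeR, n = 3 and 3, adjusted p = 0.000906), *Lrp4* by 2.36 ± 0.257 (0.000529), *Musk* by 2.24 ± 0.207 (0.000276), *Dok7* by 2.06 ± 0.143 (0.000107), *Chrnd* by 2.00 ± 0.341 (0.00345), *Rapsn* by 1.78 ± 0.173 (0.000318), *Chrna1* by 1.14 ± 0.139 (0.000754) and *Chrnb1* by 1.02 ± 0.0943 (0.000270). *Agrn* fell by 1.92 (SE 0.128, adjusted p = 9.94e-05). The 8 called higher compare with 25.8% of all 17206 genes and the 1 called lower with 26.5%. *Chrne* passed the count filter only through its myotube counts, so it is described by the counts given above and left out of these numbers.

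In WT cells *Chrng* rose by 3.2 ± 0.104 (edgeR adjusted p = 2.47e-07), *Chrnd* by 2.12 ± 0.0731 (2.93e-07), *Musk* by 2.04 ± 0.164 (3.66e-05), *Dok7* by 1.49 ± 0.136 (5.12e-05), *Rapsn* by 1.38 ± 0.101 (8.94e-06), *Lrp4* by 1.36 ± 0.0754 (2.14e-06), *Chrna1* by 1.24 ± 0.0599 (1.1e-06) and *Chrnb1* by 1.06 ± 0.0604 (2.47e-06). *Agrn* fell by 1.83 (SE 0.0992, adjusted p = 1.9e-06). The 8 called higher compare with 34.9% of all 16907 genes and the 1 called lower with 34.5%. The median over these 9 members was 2.00 in *mdx* and 1.38 in WT, against -0.07 and -0.02 over all genes. In the interaction over the 12 cultured libraries 0 of 10 members were called by edgeR, against 0.0592% of all 18585 genes called in either direction. At an unadjusted p under 0.05, a level at which all genes were not counted, there were 2 members: *Lrp4*, at 1.02 ± 0.273 (adjusted p = 0.226), and *Dok7*, at 0.59 ± 0.201 (adjusted p = 0.302). *Rapsn* stood at 0.42 ± 0.208 (0.450), *Musk* at 0.22 ± 0.272 (0.793), *Chrng* at -0.17 ± 0.385 (0.910), *Chrnd* at -0.10 ± 0.364 (0.952), *Chrna1* at -0.08 ± 0.146 (0.882), *Agrn* at -0.06 ± 0.162 (0.926) and *Chrnb1* at -0.01 ± 0.104 (0.978). *Chrne*, which passed the count filter through its myotube counts, stood at 0.62 ± 1.56 (0.922). DESeq2, which called 287 of 17235 genes, called 1 member, *Lrp4* (1.01, adjusted p = 0.0316).

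**Figure D4:**
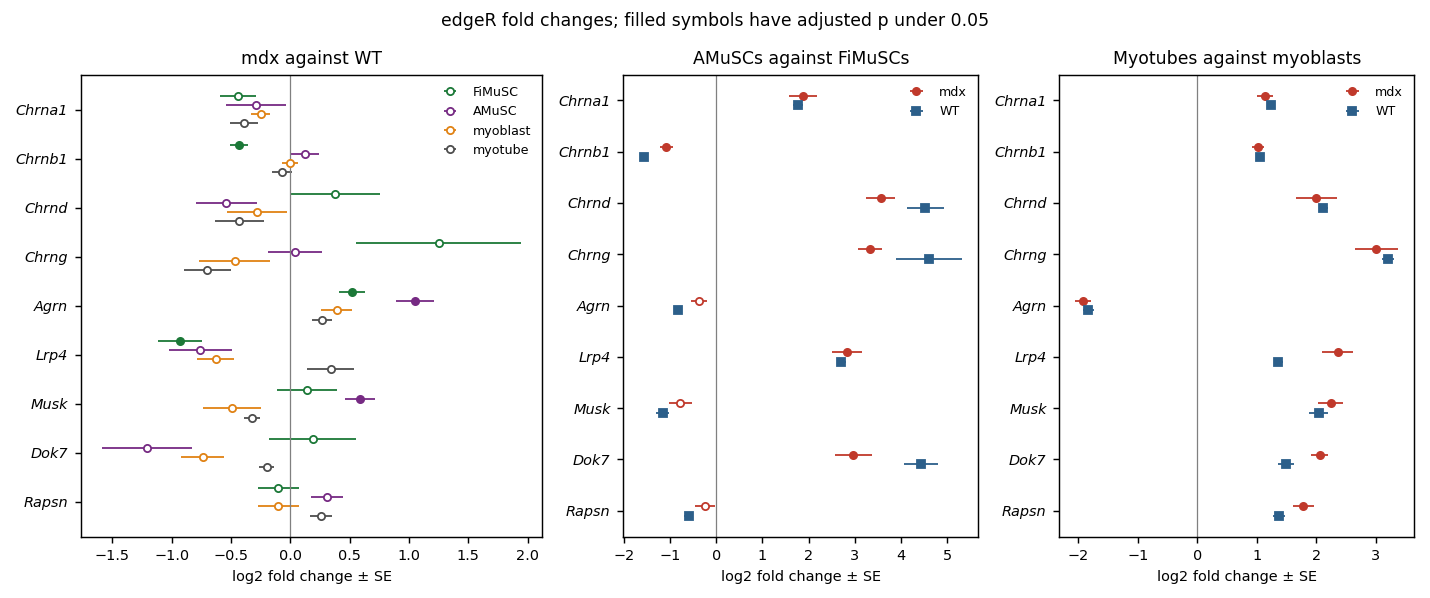
Log2 fold change of the members other than *Chrne* (x axis, edgeR, bars are ± 1 SE) in the comparisons of *mdx* against WT at each cell state, of AMuSCs against FiMuSCs and of myotubes against myoblasts within each genotype; filled points passed an adjusted p of 0.05. Between genotypes, filled points are *Agrn*, *Chrnb1* and *Lrp4* in FiMuSCs and *Agrn* and *Musk* in AMuSCs, whereas the differentiation panels are filled for all 9 genes drawn.

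Other genes of the same pathways were counted from lists by role. For these counts, the shares of all genes called higher and lower were 5.82% and 3.85% in *mdx* FiMuSCs, 14.8% and 8.95% in *mdx* AMuSCs, 15.5% and 11.7% with injury in *mdx*, 31.6% and 33% with injury in WT, 25.8% and 26.5% with differentiation in *mdx*, and 34.9% and 34.5% with differentiation in WT. Among genes of the synaptic cleft and basal lamina, 5 of 15 tested were called higher and 2 lower in *mdx* FiMuSCs, and 7 of 14 higher and 1 lower in *mdx* AMuSCs, in both with the smallest p for *Col4a5*, a basement membrane collagen gene (log2 fold change 2.52 in FiMuSCs and 1.90 in AMuSCs). In myotubes against myoblasts 6 of 12 were called higher and 2 lower in *mdx*, and 8 of 11 higher and 2 lower in WT, with *Ache*, the acetylcholinesterase gene, up by 4.33 in *mdx* and 5.34 in WT and *Lamb2*, the synaptic laminin β2 gene, up by 2.04 in *mdx* and 2.30 in WT. With injury *Lamb2* fell by 1.21 in *mdx* and by 1.94 in WT, and the list had 2 of 14 called higher and 8 lower in *mdx* and 2 of 15 higher and 11 lower in WT.

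Of 29 tested partners of MuSK and rapsyn, 2 were called higher and 2 lower in *mdx* FiMuSCs, with the cytoskeletal linker gene *Plec* at 1.04, and 2 higher and 1 lower in *mdx* AMuSCs. In FiMuSCs these counts were close to the shares over all genes, and in AMuSCs they were below them. Myotubes against myoblasts gave 13 higher and 8 lower in *mdx* and 16 higher and 10 lower in WT. The kinase genes *Src* (-2.03 in *mdx* and -2.12 in WT) and *Abl1* (-1.57 in *mdx* and -1.84 in WT) fell, and *Dvl1*, whose product binds MuSK, rose by 1.45 in *mdx* and 1.62 in WT. Of 10 tested genes of receptor assembly and glycosylation, the same 4 rose with injury in *mdx* and WT and 0 fell, namely the chaperone genes *Canx* (0.92 in *mdx* and 1.52 in WT) and *Calr* (0.87 in *mdx* and 1.15 in WT) and the glycosylation genes *Dpagt1* (1.06 in *mdx* and 1.39 in WT) and *Gfpt1* (0.75 in *mdx* and 0.62 in WT).

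Among 9 tested genes of the transcription of synaptic genes, myotubes against myoblasts gave 3 called higher and 3 lower in *mdx*, and 4 higher and 5 lower in WT. The neuregulin receptor gene *Erbb2* rose by 2.69 in *mdx* and 2.42 in WT, while the ETS factor gene *Etv4* fell by 4.19 in *mdx* and by 4.56 in WT. In the same comparison, genes of the response to activity and denervation gave 7 of 9 called higher and 0 lower in *mdx*, against 25.8% and 26.5% of all genes, and 7 of 9 higher and 1 lower in WT, against 34.9% and 34.5%, with *Ncam1*, a cell adhesion gene, at 2.53 in *mdx* and 2.47 in WT. Of the 11 nicotinic subunits found outside muscle receptors 3 were tested in sorted cells, and *Chrna7*, the α7 subunit gene, was called higher in *mdx* AMuSCs (1.92, edgeR adjusted p = 0.0196).

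Over the 24 libraries the members fell into kinds by their log2 CPM, described by Pearson's r with no test, since the libraries share cell state. *Chrnd* followed *Dok7* (r = 0.984) and *Chrng* (r = 0.982), and *Dok7* followed *Lrp4* (r = 0.969). *Chrnb1* followed *Musk* (r = 0.822) and *Rapsn* (r = 0.745) more than *Chrna1* (r = 0.148), and *Agrn* had an r between -0.708 and -0.345 with the 8 other members compared (*Chrne* was not). Of 11394 protein-coding genes searched, those most like *Chrna1* were *Chn1* (0.994), *Hes6* (0.994) and 1110008P14Rik (0.989), and those most like *Chrng* were *Dusp27* (0.994), *Synpo2l* (0.985) and *Ehd4* (0.984). *Dok7* was nearest to *Eno3* (0.990), *Uba3* (0.985) and *Chrnd*, and *Lrp4* to *Scx* (0.986), *Otog* (0.978) and *Stam* (0.978). The genes nearest to *Musk* were *Tollip* (0.970), *Rcan1* (0.964) and *Emc7* (0.959), to *Rapsn* *Emp2* (0.972), *Fyco1* (0.957) and *Paxx* (0.954), to *Agrn* *Ldb1* (0.962), *Sh2d3c* (0.958) and *Gas7* (0.956), and to *Chrne* *Actr8* (0.938), *Nipsnap2* (0.935) and *Des* (0.931).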

How the data were processed

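RNA was measured by polyA RNA-seq in 24 libraries. Per transcript and library, the authors deposited expected counts (estimated reads), TPM and effective lengths. Salmon 0.13.1, DESeq2 and the build GRCm38 stand in the submitters' processing notes, without roles. The strand setting of the quantification is not given in the sources used here. Genes were matched to GENCODE M21 (53355 of 53392).

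Expected counts were summed per gene and rounded. Each comparison used its own 6 libraries (12 for an interaction), filterByExpr, TMM and the quasi-likelihood test of edgeR 4.0.16 (R 4.3.3, robust, two-sided). The SE of a log2 fold change was taken as its absolute value divided by the square root of the F of that test. Benjamini-Hochberg adjustment ran over all genes tested, at 0.05. The log2 CPM behind the correlations had a prior count of 2. Scripts were tested on simulated data. Alternatives were RLE scaling, DESeq2 1.42.0, no count filter, all 24 libraries in one fit, a replicate block, a transcript length offset and leaving out each library. Between 3 and 3 libraries, the spread between replicates set the precision. Deposited TPM were summed per gene for levels between genes and for shares of subunits and transcripts.

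All 10 members were named in every comparison that tested them, *Chrne* by its counts alone between myotubes and myoblasts. From each other list the counts and up to 4 genes with the smallest p could be named, and for 8 members the 3 genes with the highest correlation. Members and lists were chosen with earlier results of these data known. Promoter windows and exons came from RefSeq and GENCODE annotation of GRCm38.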

Additional observations from a re-analysis of the deposited data

How the results depend on the processing

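No comparison had every correlation of same-numbered deviations above 0.1. In WT myotubes against myoblasts, each myotube library still matched the myoblast library of its own number best (0.060, 0.029 and 0.059). In *mdx* the same correlations were 0.285, 0.003 and 0.028, and only replicate 1 matched its own number best. Whether the cultures were paired was not tested. With a replicate block, 0 members were called between *mdx* and WT FiMuSCs, against 3 without it (*Chrnb1* adjusted p = 0.0574, *Lrp4* 0.0546 and *Agrn* 0.0769 by edgeR), and 4 in AMuSCs, against 2 without it, where all 24 libraries in one fit and DESeq2 also gave 4. DESeq2 gave 2 in myoblasts, 2 in myotubes, 2 in the injury interaction and 1 in the differentiation interaction, where edgeR gave 0. The injury interaction gave 1 with RLE scaling, 1 with the length offset (*Dok7*) and 3 with all 24 libraries. Injury in *mdx* gave 7 by DESeq2, without the filter and with the block and 8 with all 24 libraries, against 6. Leaving out single libraries gave 0 to 4 members in FiMuSCs, 1 to 4 in AMuSCs and 0 to 0 in myoblasts and in myotubes. It gave 6 to 7 for injury in *mdx*, 9 to 9 in WT, 0 to 3 for the injury interaction and 0 to 0 for the differentiation interaction. For differentiation, the 9 members tested in both states were called in every alternative fit in each genotype, with *Chrne* not counted. The cause of these shifts was not tested.

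Over all genes, calls in FiMuSCs numbered 1876, against 3130 by DESeq2, 1148 with the block, 1221 with the length offset and 511 to 2503 without single libraries. In AMuSCs they numbered 4582, against 5863 by DESeq2, 2886 with the length offset and 1416 to 6305 without single libraries. In myoblasts they numbered 62, against 889 by DESeq2, 124 without the filter, 432 with all 24 libraries, 7 with the block, 27 with the length offset and 9 to 125 without single libraries. In myotubes they numbered 95, against 686, 196, 250, 15, 54 and 14 to 235 under these settings in the same order. The injury interaction had 3189, against 4604 by DESeq2, 1785 with the length offset and 1793 to 4878 without single libraries. The differentiation interaction had 11, against 287 by DESeq2, 7 by RLE, 7 with all 24 libraries, 0 with the block, 1 with the length offset and 0 to 15 without single libraries. Injury in *mdx* had 2663 to 5919 without single libraries.

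No called member changed sign. Uncalled log2 differences did, and without single libraries they ranged in FiMuSCs from -0.09 to 0.66 for *Dok7* (1.21 with the length offset), -0.06 to 0.37 for *Musk* and -0.30 to 0.03 for *Rapsn*, in AMuSCs from -0.20 to 0.24 for *Chrng* (-0.02 by RLE and by DESeq2), in myoblasts from -0.24 to 0.05 for *Rapsn*, and in myotubes from -0.79 to 0.91 for *Chrne* (-0.07 with the block). The ranges were -0.17 to 0.33 for *Lrp4* and -0.25 to 0.31 for *Chrna1* in the injury interaction, and in the differentiation interaction -0.10 to 0.05 for *Chrnb1* (0.07 with the length offset), -0.61 to 1.43 for *Chrne*, -0.17 to 0.03 for *Agrn*, -0.41 to 0.19 for *Chrng* and -0.34 to 0.14 for *Chrnd*.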
